A study of Rattus norvegicus with 24 samples.

Results

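This report describes the response of the rat liver to the lowest exposures of a TCDD dose series, 0.01 and 0.03 µg/kg, pooled and set against vehicle. The members were chosen by their dose labels: 6 low-dose libraries and 3 vehicle libraries, 9 of the 24 in the series. All came from female Sprague-Dawley rats, an outbred stock, labelled as 57 days of age. Dosing was by gavage every 4 days, with TCDD or with its vehicle, sesame oil, and livers were taken on day 28. The vehicle rats were thus handled and dosed with oil, not left untreated. Each dose held 3 libraries, given in the labels as biological replicates. The question was what the pooled low exposure changes beyond the most sensitive gene.

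TCDD, a chlorinated dioxin, is a long-lived ligand of the aryl hydrocarbon receptor. The bound receptor moves to the nucleus, pairs with its partner Arnt and binds short response elements near genes of xenobiotic metabolism, of which the Cyp1 family is the best known in liver. Cyp1 induction is widely used as a marker of exposure to dioxin-like compounds. The count tables carried Ensembl gene IDs, and no table used here paired them with gene names, so that genes are described by ID, level and behaviour, and neither receptor targets nor liver cell markers could be picked out by name.

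Over the 9 libraries, depth lay between 11866339 and 15760143 gene counts. It averaged 12809182 ± 851540 in vehicle (SD, n = 3) and 13667377 ± 1113592 at the pooled low doses (SD, n = 6). Of 7 library measures compared between these groups, among them depth, alignments that were not unique, alignments outside genes and the number of genes detected, the lowest exact two-sided permutation p was 0.107 (Benjamini-Hochberg adjusted p = 0.643). The number of genes detected gave that value, at 14487 to 14912 in the low-dose libraries and 14507 to 14605 in vehicle. Levels below are CPM, counts divided by the TMM-scaled library size, and a gene is said to have been called when its edgeR quasi-likelihood p, adjusted over 12496 genes, was below 0.05.

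In the pooled comparison 2 genes were called, which is 0.0160% of those tested, and both rose. ENSRNOG00000019500 rose 41.9-fold (95% interval 20.3 to 86.5) and ENSRNOG00000016173 rose 2.70-fold (1.97 to 3.71). No gene was called lower by edgeR, with 596 lower at an unadjusted p below 0.05. DESeq2 called 54 genes in the same comparison, 32 higher and 22 lower, both edgeR calls among them. The other genes of that list had edgeR adjusted p-values of 0.100 to 0.289. Taken singly, 0.01 µg/kg called 1 gene (0.00800%), the first of these, and 0.03 µg/kg called both (0.0160%), while DESeq2 called 15 and 32. In bulk liver, more RNA per cell and more cells of a type cannot be told apart.

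ENSRNOG00000019500 was the most sensitive gene. The vehicle libraries held 19.1, 11.4 and 11.5 CPM. At 0.01 µg/kg the libraries held 376, 522 and 72.5 CPM, and at 0.03 µg/kg 1075, 1487 and 639 CPM. Every low-dose library lay above every vehicle library, and all 3 at 0.03 µg/kg lay above all 3 at 0.01 µg/kg. Replicate 3 was the lowest library at both doses. The pooled log2 fold change was 5.39 (SE 0.501; 95% interval 4.35 to 6.43; edgeR adjusted p = 8.85e-06). An exact two-sided permutation test of mean log2(CPM + 1) over the 84 arrangements of 6 and 3 libraries gave p = 0.0119, the smallest it can give. The gene was picked by its lowest p in these same libraries, so that this value is a description only. Within the low exposure the spread was wide, with a mean of 695 ± 509 CPM (SD, n = 6) over both doses.

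ENSRNOG00000016173 was already abundant without TCDD. The vehicle libraries held 1561, 866 and 844 CPM. The libraries at 0.01 µg/kg held 2260, 2865 and 1453 CPM, and those at 0.03 µg/kg 3697, 5133 and 3048 CPM. Low-dose and vehicle libraries overlapped by 1 library each way, since replicate 3 at 0.01 µg/kg stood below vehicle replicate 1. The 3 libraries at 0.03 µg/kg all lay above vehicle and above all 3 at 0.01 µg/kg. The pooled log2 fold change was 1.43 (SE 0.219; 95% interval 0.98 to 1.89; edgeR adjusted p = 0.0126). At 0.03 µg/kg alone it was called (log2 fold change 1.86, SE 0.244; edgeR adjusted p = 0.00131). At 0.01 µg/kg alone the fitted log2 fold change was 1.01 (SE 0.239), and it missed the threshold (edgeR adjusted p = 0.240). These comparisons share the vehicle libraries.

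The call of ENSRNOG00000016173 rested on single vehicle libraries. Without vehicle replicate 2 its log2 fold change was 1.29 (edgeR adjusted p = 0.414), and without vehicle replicate 3 it was 1.28 (edgeR adjusted p = 0.0697). ENSRNOG00000019500 was called with any 1 of the 9 libraries left out, at log2 fold changes of 5.12 to 5.68. When the 9 libraries were fitted without the higher doses, its edgeR adjusted p was 0.043 with the doses kept apart, 0.144 with the low doses as 1 group and 0.128 for a slope on dose rank. ENSRNOG00000016173 missed the threshold in all 3 of these fits (edgeR adjusted p = 0.244, 0.225 and 0.175).

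**Figure D1:**
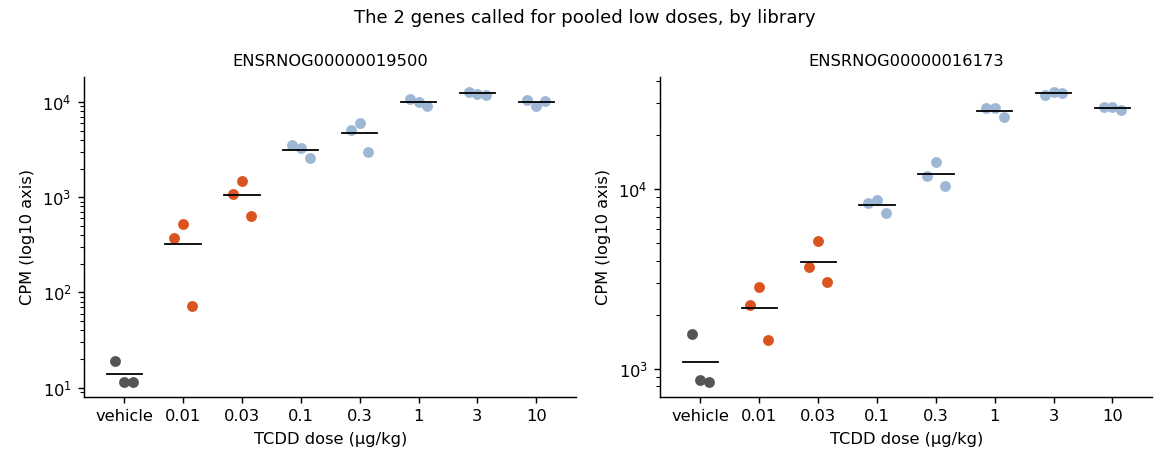
CPM on a log10 axis for each of the 24 libraries, by dose; points are libraries, bars are group means (n = 3), vehicle is dark grey, the low doses are orange and higher doses blue. ENSRNOG00000019500 stood at 11.4 to 19.1 CPM in vehicle and 72.5 to 1487 CPM at the low doses, while ENSRNOG00000016173 at 0.01 µg/kg overlapped vehicle.

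The means of the pooled comparison used none of the 15 higher-dose libraries, which gave a second view of both genes. These libraries did share in its estimate of spread, so that the views are not independent. ENSRNOG00000019500 averaged 3128 ± 481 CPM at 0.1 µg/kg and 4672 ± 1508 CPM at 0.3 µg/kg (SD, n = 3). It averaged 12305 ± 472 CPM at 3 µg/kg and 9937 ± 734 CPM at 10 µg/kg. The fitted slope over 0.1 to 10 µg/kg was 0.49 on the log2 scale per dose step (SE 0.0822; edgeR adjusted p = 0.000573).

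ENSRNOG00000016173 averaged 8133 ± 683 CPM at 0.1 µg/kg, 34186 ± 659 CPM at 3 µg/kg and 28388 ± 695 CPM at 10 µg/kg (SD, n = 3). Its slope over the same doses was 0.53 per step (SE 0.0756; edgeR adjusted p = 0.000146). Both genes thus had their highest mean at 3 µg/kg, and none of the 15 higher-dose libraries fell within the low-dose range of either. The lowest of them held 2591 CPM of the first gene and 7362 CPM of the second, against low-dose maxima of 1487 and 5133 CPM.

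The fits also give an approximate view of how far the other genes can have moved. Each interval is for a single gene and rests on 3 vehicle libraries. Its width is derived from the test statistic and is unstable for very small changes and at low counts. The median fitted change over all 12496 genes was 0.0025 on the log2 scale, and the median size of a change, whatever its sign, was 0.17. For 9557 genes (76.5%) the 95% interval of the pooled log2 fold change lay within a 2-fold change in either direction, and for 5736 (45.9%) within 1.5-fold. The 4 genes without a count in any of the 9 libraries have no interval and were not counted. Precision was lowest for the least abundant genes. The interval lay within 2-fold for 5004 of 5435 genes averaging 10 to 100 CPM (92.1%), but for 123 of 1144 genes below 1 CPM (10.8%). A fitted change of at least 2-fold was found for 201 genes upward and 177 downward, and 226 of these 378 had an unadjusted p below 0.05. Below 1 CPM, most intervals thus also held changes of 2-fold.

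**Figure D2:**
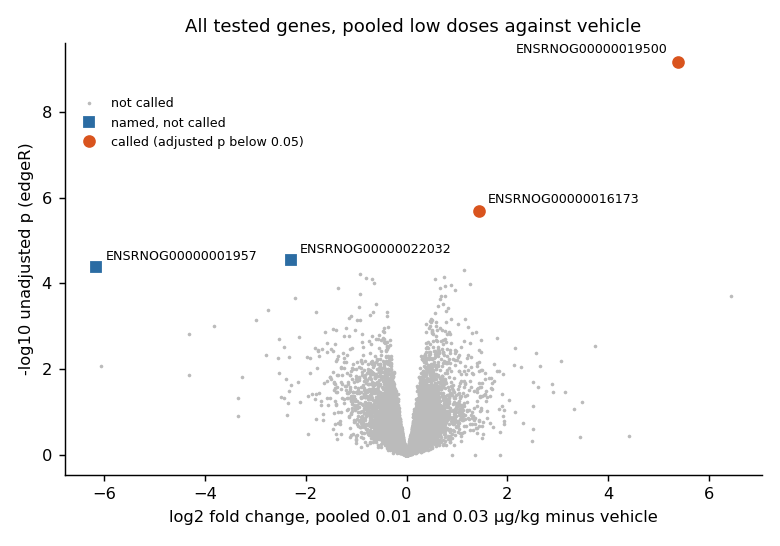
Each point is 1 of 12496 genes, with the pooled log2 fold change (0.01 and 0.03 µg/kg minus vehicle) on the horizontal axis and -log10 of the unadjusted edgeR p on the vertical axis. The 2 called genes (orange) both lie on the right, and the 2 named genes that missed the threshold (blue squares) lie on the left.

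At an unadjusted p below 0.05, 606 genes were higher (4.85%) and 596 lower (4.77%) at the pooled low doses, a nearly even balance. Without overlap between the 6 low-dose and 3 vehicle libraries were 449 genes (3.59% of all), 249 of them higher (1.99%) and 200 lower (1.60%). The share at an unadjusted p below 0.05 was 8.74% below 1 CPM, 8.23% at 1 to 10 CPM, 11.0% at 10 to 100 CPM and 9.74% at 100 CPM and above, so that it was of similar size at all levels.

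Next after the called genes stood a group that missed the threshold. Between adjusted p-values of 0.05 and 0.2 lay 43 genes, 21 higher and 22 lower. Of these, 35 did not overlap between the groups, against 3.59% of all genes. The median size of change of the 43 was 0.82 on the log2 scale, and none had an adjusted p below 0.100. Since these genes were picked by this comparison, their counts are a description only. In 30 of the 43 the median of the 15 higher-dose libraries lay within the range of the 6 low-dose libraries. In 5 it lay beyond that range, in 7 between it and vehicle, and in 1 within or past the vehicle range. Among all 449 genes without overlap these counts were 293 within, 66 beyond, 38 between and 52 within or past vehicle. A place within the low-dose range was thus not particular to the 43 genes. The 2 called genes both lay beyond the low-dose range. A slope over 0.1 to 10 µg/kg was called for 12 of the 43 genes (27.9%, against 18.8% of all genes tested), 8 in the direction of their low-dose difference and 4 against it.

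Among the 10 of these genes with the lowest p and at least 5 CPM in the higher group, 5 were higher and 5 lower, with adjusted p-values of 0.100 to 0.102. Apart from ENSRNOG00000001957, all were without overlap, 9 of the 10 (against 3.59% of all genes). The 10 were picked by their p in the same libraries, so that this count is a description only. The first of the lower genes was ENSRNOG00000022032. Its vehicle libraries held 14.0, 8.67 and 4.40 CPM, from 181, 108 and 52 counts. The libraries held 2.77, 1.09 and 2.21 CPM at 0.01 µg/kg and 2.00, 1.38 and 1.65 CPM at 0.03 µg/kg. All 6 low-dose libraries thus lay below all 3 vehicle libraries, while the vehicle libraries themselves spanned a wide range. The fitted log2 fold change was -2.29 (SE 0.427; edgeR adjusted p = 0.100). In the 15 higher-dose libraries the level ran from 1.53 to 7.57 CPM with a median of 2.85, reaching into the vehicle range. It passed the threshold in 3 alternatives, without vehicle replicate 3 (edgeR adjusted p = 0.0316), with no low-count filter (edgeR adjusted p = 0.0395) and with DESeq2 (adjusted p = 0.000902). Without vehicle replicate 2 its edgeR adjusted p was 0.489.

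The second, ENSRNOG00000001957, was a gene of extremes among individual rats. Vehicle replicates 1 and 2 held 203 and 556 counts (15.7 and 44.6 CPM), and replicate 3 held 0, which allows up to 0.253 CPM in that library. Replicate 3 at 0.01 µg/kg held 56 counts (4.13 CPM), and the other 5 low-dose libraries held 0 to 2. Vehicle replicate 3 thus lay among the low-dose libraries. The fitted log2 fold change of -6.15 (SE 1.19; edgeR adjusted p = 0.100) sets groups against each other that each hold a library without counts, so that it is no measure of size. At the higher doses, libraries at 1 µg/kg held 12.1, 11.9 and 0.956 CPM, and those at 10 µg/kg 4.80, 13.5 and 4.98 CPM. The 6 libraries at 0.1 and 0.3 µg/kg did not exceed 0.0849 CPM. Without vehicle replicate 3 the gene passed the threshold (edgeR adjusted p = 0.0063), as it did without replicate 3 at 0.01 µg/kg (edgeR adjusted p = 0.021), with no low-count filter (edgeR adjusted p = 0.0395) and with DESeq2 (adjusted p = 0.0494). Without vehicle replicate 2 its edgeR adjusted p was 0.807.

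A further lower gene was called when the 9 libraries were fitted alone, apart from the higher doses. It is described without its ID and was singled out after its values were seen. Vehicle libraries held 7.79, 8.43 and 6.35 CPM. Low-dose libraries held 0.326, 0.936 and 0.369 CPM at 0.01 µg/kg and 0.599, 0.483 and 0.430 CPM at 0.03 µg/kg. The 9-library fit gave a log2 fold change of -3.82 (edgeR adjusted p = 0.00059). With all 24 libraries in the fit, the change was the same size and missed the threshold (log2 fold change -3.82, edgeR adjusted p = 0.224). Across the series its levels fell into separate ranges, 15 libraries at 0.314 to 1.39 CPM and 9 at 6.35 to 18.0 CPM, with none between. Of the 15 higher-dose libraries 9 were in the lower range and 6 in the higher. Both ranges occurred within single groups at 0.1, 0.3, 1 and 3 µg/kg. The 3 vehicle libraries were all in the higher range and the 6 low-dose libraries all in the lower.

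**Figure D3:**
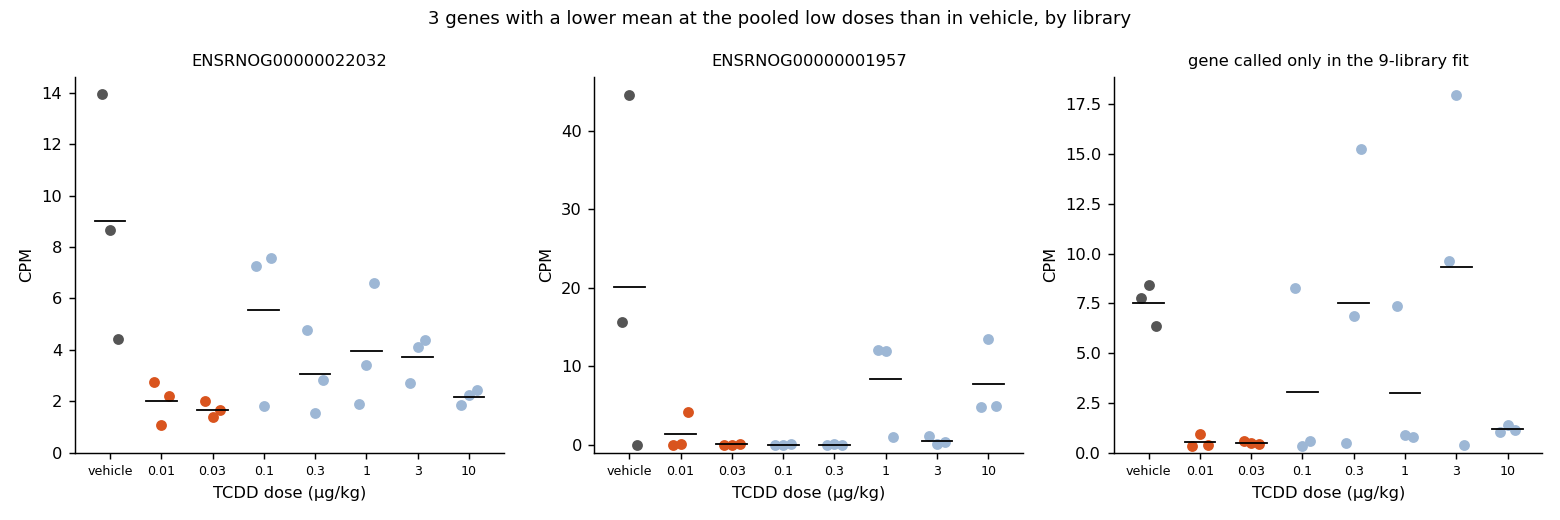
CPM on a linear axis for each of the 24 libraries, by dose, for ENSRNOG00000022032, ENSRNOG00000001957 and the gene called only when the 9 libraries were fitted alone; points are libraries and bars are group means (n = 3). Libraries of higher doses (blue) reach back up to vehicle levels, as at 0.3 and 3 µg/kg for the third gene, with single libraries up to 15.3 and 18.0 CPM.

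Levels split in this way were rare. A gap of at least 4-fold among the 15 higher-dose libraries, with 3 or more libraries on each side and no called slope, was found in 15 of the 12496 genes (0.12%). Of the 378 genes with a fitted low-dose change of at least 2-fold, 10 were of this kind (2.65%), and of the 1202 genes at an unadjusted p below 0.05 there were 4 (0.333%). None of the 43 genes at adjusted p-values of 0.05 to 0.2 met this definition.

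Genes that change across the higher doses can be chosen by a slope fitted to those 15 libraries alone. A gene already at its plateau by 0.1 µg/kg need not show a slope, so these lists need not hold every gene that responds. Over 0.1 to 10 µg/kg, a rising slope was called for 1244 genes (9.96%) and a falling slope for 1100 (8.80%). Of the 1244 risers, the pooled low doses called 2, the genes described above, and of the 1100 fallers none, by edgeR. At an unadjusted p below 0.05, 81 risers were higher (6.51%, against 4.85% of all genes) and 51 lower (4.10%, against 4.77%). The median pooled log2 fold change was 0.038 among the risers and 0.0025 among all genes. Among the fallers 68 were higher (6.18%) and 67 lower (6.09%), with a median of 0.00089. In either direction the share was 10.6% of the risers, 12.3% of the fallers and 9.62% of all genes. These shares were not tested against each other. Without 10 µg/kg replicate 2 or 3, slopes were called for 1562 and 1530 genes in place of 2344.

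Among the 50 steepest risers at the higher doses, the pooled log2 fold changes had quartiles of -0.31 and 1.06 around a median of 0.31. At an unadjusted p below 0.05, 2 of them were higher (4.00%, against 4.85% of all genes) and 0 lower (against 4.77%), and 0 were free of overlap (against 3.59%). Nearly all of these 50 genes averaged below 1 CPM in vehicle. With so few counts, these shares say little on whether the genes respond at the low doses. For 0 of these 50 did the 95% interval lie within a 2-fold change, and 3 of them had no count in any of the 9 libraries. Among the 50 steepest fallers the median was -0.035, with 3 higher and 3 lower at an unadjusted p below 0.05, against 4.85% and 4.77% of all genes.

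**Figure D4:**
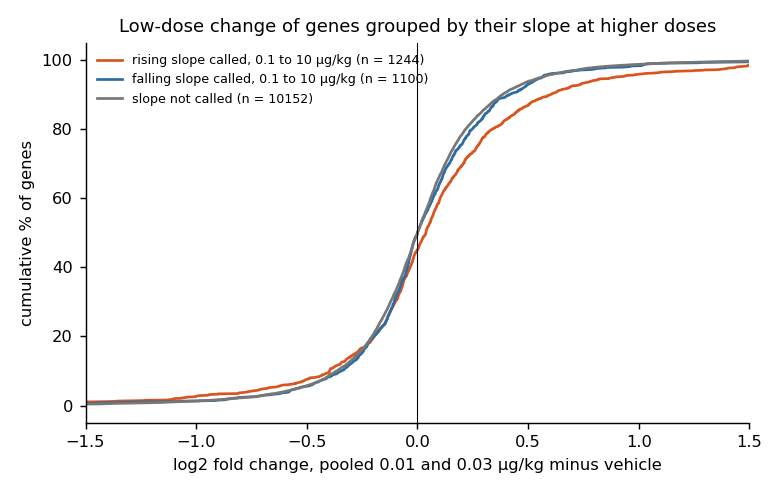
Cumulative percentage of genes by pooled low-dose log2 fold change, for 1244 genes with a called rising slope over 0.1 to 10 µg/kg, 1100 with a called falling slope and 10152 with none; changes beyond 1.5 either way lie outside the axis. The curve of the risers runs to the right of the others above 0, with an upper quartile of 0.27 against 0.18 for all genes.

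The low doses were also compared with each other, which uses no vehicle mean, though the vehicle libraries shared in the estimate of spread. No gene was called between 0.03 and 0.01 µg/kg by edgeR, with 406 at an unadjusted p below 0.05 (3.25%), while DESeq2 called 1.

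The gene with the lowest p between the doses was also the one that DESeq2 called (DESeq2 adjusted p = 0.00123). It is described without its ID and was singled out after its values were seen. Vehicle libraries held 1.78, 1.69 and 1.52 CPM. Those at 0.01 µg/kg held 1.63, 2.49 and 1.48 CPM, and those at 0.03 µg/kg 11.0, 9.59 and 2.80 CPM. The libraries at 0.01 µg/kg overlapped vehicle, while all 3 at 0.03 µg/kg lay above both other groups, replicate 3 by the least. The fitted log2 difference between the doses was 2.06 (SE 0.402; edgeR adjusted p = 0.595). At 0.03 µg/kg against vehicle it was 2.23 (SE 0.409; edgeR adjusted p = 0.0968, DESeq2 adjusted p = 5.23e-05), and at 0.01 µg/kg 0.16 (SE 0.451; edgeR adjusted p = 0.967). The pooled value was 1.20 (SE 0.384; edgeR adjusted p = 0.321). The gene was among the 50 steepest risers at the higher doses, which hold none of these 9 libraries. It averaged 79.2 ± 35.1 CPM at 0.1 µg/kg and 2016 ± 311 CPM at 10 µg/kg (SD, n = 3), with a slope of 1.26 per dose step (SE 0.0936; edgeR adjusted p = 1.25e-07).

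Between the low doses, ENSRNOG00000019500 was 1.72 higher at 0.03 µg/kg on the log2 scale (SE 0.437; edgeR adjusted p = 1.00). ENSRNOG00000016173 was 0.85 higher (SE 0.238; edgeR adjusted p = 1.00). Both had an unadjusted p below 0.05, and neither difference held after adjustment. Of the 43 genes at pooled adjusted p-values of 0.05 to 0.2, 1 had an unadjusted p below 0.05 between the doses. Over all genes the share was 3.25%. In that 1 gene the level at 0.03 µg/kg lay nearer to vehicle than that at 0.01 µg/kg. The median size of difference between the doses was 0.19 on the log2 scale for the 43 genes, against 0.15 over all genes.

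Over whole libraries, the distances of low-dose libraries from vehicle overlapped those among vehicle libraries. The root mean square log2 difference over the 500 most different genes was 1.87 to 2.37 for the 3 pairs of vehicle libraries. It was 1.84 to 2.50 for the 18 pairs of a vehicle with a low-dose library (median 2.09), and 1.74 to 2.22 for the 6 pairs within a low dose. The 9 pairs between the low doses lay at 1.82 to 2.16 (median 1.90). Vehicle replicate 1 was nearer to each of the 6 low-dose libraries (1.84 to 2.10) than to the other vehicle libraries (2.22 and 2.37). Vehicle replicates 2 and 3, in contrast, were nearer to each other (1.87) than to any low-dose library (2.03 to 2.45 and 1.98 to 2.50).

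The number of small p-values depended on which vehicle library was left out. With all libraries 9.62% of genes had an unadjusted p below 0.05. Without vehicle replicate 2 this share was 4.88% (619 genes), about the level of the threshold itself, and without vehicle replicate 1 it was 12.5% (1583 genes). It was 9.63% (1222 genes) without vehicle replicate 3. Leaving out a low-dose library gave 7.62% to 10.9%. Without vehicle replicate 2, 1 gene was called, and without vehicle replicates 1 and 3 there were 6 and 5. Without replicate 3 at 0.01 µg/kg, the library with the lowest level of ENSRNOG00000019500 among the treated, 4 genes were called, the 2 of the full comparison among them.

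**Figure D5:**
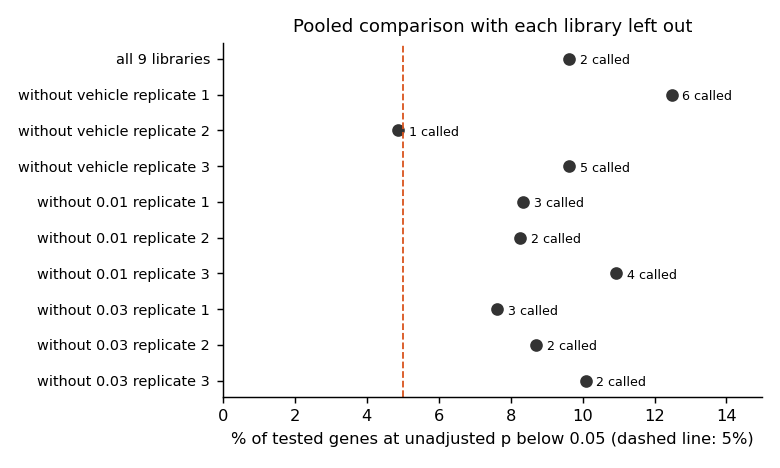
Percentage of tested genes at an unadjusted p below 0.05 in the pooled comparison, with all 9 libraries and with each left out in turn; the dashed line marks 5% and labels give the number of genes called. The share lies between 4.88% (without vehicle replicate 2) and 12.5% (without vehicle replicate 1).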

How the data were processed

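The deposited values were raw counts per Ensembl gene ID, 26404 IDs in 1 table per library. Per the submitters' processing notes, the authors used TopHat 1.4.1 and HTSeq 0.6.1, beside FastQC 0.11.2, SAMtools 0.1.2, DESeq and cutadapt 1.4.1, with no roles or settings given. The genome build, annotation and strand setting are not given in the sources used here, so counts of overlapping, antisense or near-identical genes are uncertain. The 5 HTSeq summary rows, 37.3% to 41.4% of a table, were left out of library sizes and tests. None of the IDs matched the RefSeq gene table (0 of 26404), so the planned gene lists, cell type markers and promoter sequences could not be used.

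Counts were fitted in R 4.3.3 with edgeR 4.0.16: filterByExpr on 8 groups (12496 genes), TMM scaling, and a quasi-likelihood model of all 24 libraries with 16 residual degrees of freedom and a common biological coefficient of variation of 22.3%. The contrast was the mean of the 0.01 and 0.03 µg/kg group means minus vehicle. The slope over 0.1 to 10 µg/kg used those 15 libraries alone. Adjustment was Benjamini-Hochberg over all genes tested. Standard errors are the size of the log2 fold change divided by the square root of F, and intervals use the moderated degrees of freedom. The steps were tested on simulated data. Named genes are those called, then those with the lowest p at 5 CPM or more, limited to 2 IDs each way since IDs have no names. Alternatives were RLE scaling, DESeq2 1.42.0, other filters, other sets of libraries and contrasts, the replicate number as a block, and leaving out each library. Replicate pairs of the 9 libraries differed by more than sampling noise (chi-square per degree of freedom 27.1 to 54.3). The groups and gene lists were chosen with earlier results of these data known; the split-level definition, the lists of 43 and 50 genes and the library distances were chosen after the data were seen. Intervals cover the spread between these rats; the detection limit for 0 counts (3 counts) covers counting error only.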

Additional observations from a re-analysis of the deposited data

Results flagged for a closer look

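ENSRNOG00000001957 stood far from the rest in 1 low-dose library, with 4.133 CPM in replicate 3 at 0.01 µg/kg. The other 5 low-dose libraries held at most 0.143 CPM. The gap to the nearest of them was 0.965 of the range of the 6 libraries, above Dixon's 95% value of 0.625. Chance flags about 1 in 20 groups, and 11 measures were examined in this way.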

How the results depend on the processing

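With no low-count filter the pooled comparison called 4 genes, 2 higher and 2 lower, the 2 main calls among them. A fit of the 9 libraries with the low doses as 1 group called 1 gene. That gene was lower, and neither main call passed there. With the doses kept apart, the 9 libraries gave 1 higher call, ENSRNOG00000019500, and 1 lower. A slope on dose rank over the 9 libraries called 0, with 813 at an unadjusted p below 0.05. DESeq2 called 54 (32 higher, 22 lower), both edgeR calls among them. The low doses as 1 group gave ENSRNOG00000019500 a log2 fold change of 5.63 and an adjusted p of 0.144. Its standard error was 0.501 in the fit of 24 libraries, 0.658 in that of the 9 with the doses kept apart and 0.869 with them as 1 group. ENSRNOG00000016173 missed the threshold in both fits of the 9 libraries (edgeR adjusted p = 0.244 and 0.225). Leaving out 1 library gave 1 to 6 calls. At 0.01 µg/kg DESeq2 called 15 genes and omissions 1 to 2; at 0.03 µg/kg DESeq2 called 32 and omissions 2 to 4; between the doses DESeq2 called 1 and omissions 0 to 1. Slopes over 0.1 to 10 µg/kg were called for 1530 to 2620 genes with 1 library left out. No named gene changed its direction in any of 17 alternatives.

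With the replicate number as a block, 2 genes were called in the pooled comparison, both of them called without it, and 2228 slopes. Genes at an unadjusted p below 0.05 in the pooled comparison numbered 1413 with the block and 1202 without it. The labels do not say that a number pairs rats. Same-numbered libraries of different groups correlated in their deviations by -0.0011 to 0.226, with 6 of 9 pairs above 0.1. Differently numbered libraries correlated by -0.302 to 0.188, with 4 of 18 pairs above 0.1. In all, 8 of 9 libraries correlated best with their own number.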
